A study of Homo sapiens with 36 samples.

Results

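The genes described here are a set of 36 that make, carry, sense and export cholesterol, out of 57500 gene rows in each count file. They were listed by symbol and matched to their Ensembl identifiers, and all 36 had a row. The list was drawn up because STARD4 had shown a CO2 response that differed with and without LPS in control cells, so the shNT values of STARD4 chose the list and are given as a description, with no test. By role the set holds 1 sterol carrier, 18 enzymes of the mevalonate and sterol synthesis route, 5 genes of SREBP control, 5 of the LXR and efflux arm, 4 of lysosomal export, esterification and hydroxylation, and 3 of fatty acid synthesis.

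RNA was sequenced from THP-1, an established human monocytic leukaemia line, after transduction with lentiviral particles carrying a non-target shRNA (shNT) or an shRNA against NR4A2 (shNR4A2) or NR4A3 (shNR4A3). Each of the 3 lines was kept for 4 h in buffered medium at 5% CO2 or at 10% CO2 (buffered hypercapnia). At each CO2 level the cells received either no stimulus (basal) or LPS, the bacterial lipopolysaccharide that activates monocytes, at 2.5 µg/mL for the last 2 h, with 3 libraries for each of the 12 conditions. The study asks whether the depletion of NR4A2 or NR4A3 changes the monocyte response to hypercapnia. Each line is a single transduced population, so a difference between lines and an effect of the knockdown cannot be told apart. The study describes its RNA-seq replicates as individual experiments, while the labels do not say how the libraries of a condition were separated, and p-values measure the spread between these libraries.

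Cells hold their cholesterol within narrow limits through a feedback loop. When sterols run low in the endoplasmic reticulum, SCAP escorts the SREBP transcription factors (from SREBF1 and SREBF2) to the Golgi, where they are cleaved and then switch on the synthesis enzymes. INSIG1 and INSIG2 hold SCAP back when sterols are plentiful. Oxysterols instead activate the LXR receptors (NR1H2 and NR1H3), whose targets ABCA1 and ABCG1 move cholesterol out of the cell and whose target MYLIP marks lipoprotein receptors for degradation. In macrophages this balance decides between lipid storage and release, and STARD4 carries sterol between membranes, among them the endoplasmic reticulum where it is sensed.

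Libraries held between 16171161 and 23929138 counts, with a median of 19639071, and replicates differed by more than counting noise (chi-square per degree of freedom 5.98 to 26.2). All 8 monocyte and myeloid markers were detected in every library, with a summed level of 869.9 to 2289.7 TPM (transcript level, counts scaled for gene length and depth). The summed level of T cell markers reached 1.67 TPM, that of B cell markers 6.77 TPM, and those of epithelial and fibroblast markers 0.947 and 0.948 TPM. The targeted genes were checked first. The mean NR4A2 level in shNR4A2 was 1.95 TPM against 3.69 TPM in shNT at 5% CO2, and 21.2 TPM against 62.7 TPM with LPS, and no shNR4A2 library reached the lowest shNT library in any of the 4 conditions. The mean NR4A3 level in shNR4A3 was 0.0989 TPM against 0.587 TPM in shNT at 5% CO2, and 17.3 TPM against 31.7 TPM with LPS, while at 10% CO2 without LPS the libraries overlapped (0.185 to 0.232 TPM in shNR4A3 and 0.176 to 0.374 TPM in shNT). In bulk RNA, fewer cells of a type and less RNA per cell cannot be told apart.

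A filter on low counts left 17720 genes for testing, among them 35 of the 36. The member left out was CH25H, the enzyme that makes 25-hydroxycholesterol, which had 0 counts in 29 of the 36 libraries and at most 4 counts in any. Over the 36 libraries the highest median levels were those of the fatty acid enzymes SCD (313 TPM) and FASN (260 TPM), of FDPS (244 TPM), which makes farnesyl diphosphate, and of SREBF2 (225 TPM). The lowest median levels among tested members were 0.914 TPM for the efflux pump ABCG1, 5.14 TPM for the sterol reductase HSD17B7 and 5.49 TPM for mevalonate kinase, MVK. A gene is called when edgeR's quasi-likelihood test gave a Benjamini-Hochberg adjusted p under 0.05 over all 17720 genes.

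The promoter of STARD4 is shown beside those of 4 members of the feedback loop, because STARD4 and the synthesis enzymes are the genes whose responses to CO2 with LPS ran in opposite directions. The sequences are upstream of the RefSeq start sites on GRCh38.p14, read 5′ to 3′ on the gene's strand. Each is the longest run without an annotated exon of a protein-coding gene in the 250 bases before the start. In the count files the gene rows of MVK and SREBF2 begin before their stretches end. Capitals mark the letters CCAAT (the NF-Y box) and CACNCCAC (the core of the sterol regulatory element), or their reverse complements. The STARD4 stretch is chr5:111512591-111512785 (minus strand), that of HMGCS1 is chr5:43313513-43313662 (minus strand), that of MVK is chr12:109573581-109573792 (plus strand), that of INSIG1 is chr7:155297628-155297775 (plus strand) and that of SREBF2 is chr22:41832855-41833104 (plus strand).
STARD4: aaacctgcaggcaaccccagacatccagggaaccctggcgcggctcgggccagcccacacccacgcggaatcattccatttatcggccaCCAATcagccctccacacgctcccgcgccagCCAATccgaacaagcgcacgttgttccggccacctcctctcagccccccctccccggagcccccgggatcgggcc
HMGCS1: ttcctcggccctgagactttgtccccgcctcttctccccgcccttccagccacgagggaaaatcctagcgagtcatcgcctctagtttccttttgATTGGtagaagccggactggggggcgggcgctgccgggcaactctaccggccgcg
MVK: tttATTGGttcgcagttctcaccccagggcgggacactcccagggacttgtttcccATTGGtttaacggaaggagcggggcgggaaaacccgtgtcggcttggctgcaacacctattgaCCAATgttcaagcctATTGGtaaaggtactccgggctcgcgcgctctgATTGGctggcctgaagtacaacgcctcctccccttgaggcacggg
INSIG1: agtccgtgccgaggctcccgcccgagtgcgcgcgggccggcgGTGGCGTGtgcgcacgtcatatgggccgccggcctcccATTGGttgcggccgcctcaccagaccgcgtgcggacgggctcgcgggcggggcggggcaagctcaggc
SREBF2: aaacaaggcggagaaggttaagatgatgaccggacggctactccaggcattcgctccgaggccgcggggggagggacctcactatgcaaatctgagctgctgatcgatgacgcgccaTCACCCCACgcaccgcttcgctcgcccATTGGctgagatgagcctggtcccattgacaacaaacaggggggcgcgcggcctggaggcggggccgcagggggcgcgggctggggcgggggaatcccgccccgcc

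All 5 stretches held at least 1 CCAAT box, with 2 in STARD4 and 5 in MVK, and CACNCCAC was found in the INSIG1 and SREBF2 stretches. In SREBF2 the match was part of the longer TCACNCCAC, which overlaps it. The RefSeq table held promoter windows, from 250 bases before to 50 bases after the start, for 31 of the 36 members, some with several start sites, 43 windows in all. CCAAT on either strand was in 25 of these 43 windows (58.1%) and in 34.6% of all 35116 windows of the table. CACNCCAC was in 8 of the 43 windows (18.6%) and in 5.87% of all, and TCACNCCAC in 1 of the 43 and in 1.13% of all. These matches are a description of letters. Neither sterol element sequence was found in the STARD4 window, nor in those of HMGCS1, MVK, NSDHL and DHCR7. CACNCCAC was found for 7 of the 31 members: IDI1, SC5D, INSIG1, SREBF2, ABCA1, SCD and ACACA. Of these, IDI1, SC5D, INSIG1 and ABCA1 were called lower at the higher CO2 level in LPS-stimulated cells of the knockdown lines. ACACA was called higher there, and SREBF2 and SCD were not called.

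STARD4 (ENSG00000164211, chr5:111496033-111512590, minus strand) fell at 10% CO2 in basal cells and rose at 10% CO2 in LPS-stimulated cells, in the control line that chose it and again in the knockdown lines that did not. In shNT cells its level was 13.4, 11.9 and 14.3 TPM at 5% CO2 and 9.35, 9.09 and 9.73 TPM at 10% CO2. With LPS it was 37.2, 39.4 and 41.8 TPM at 5% CO2 and 45.1, 56.9 and 51.5 TPM at 10% CO2. All 3 basal libraries at 10% CO2 lay below those at 5% CO2, and all 3 LPS libraries lay above, with log2 fold changes of -0.40 and 0.51 and a difference between them of 0.91, the contrast on which the gene was chosen. Groups without overlap were found for 19.9% of all genes tested in basal shNT cells and 30% with LPS, by scaled counts.

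In shNR4A2 cells the STARD4 level was 14.7, 15.0 and 15.0 TPM at 5% CO2 and 9.24, 10.7 and 11.5 TPM at 10% CO2. With LPS it was 50.8, 47.6 and 54.2 TPM at 5% CO2 and 62.6, 85.0 and 67.4 TPM at 10% CO2. The groups did not overlap in either state, beside 13.9% of all genes tested in basal cells and 21.5% with LPS. In shNR4A3 cells the level was 12.8, 14.4 and 11.9 TPM at 5% CO2 and 9.46, 10.3 and 10.8 TPM at 10% CO2. With LPS it was 58.5, 43.7 and 51.8 TPM at 5% CO2 and 62.3, 78.6 and 55.2 TPM at 10% CO2, where the lowest library at 10% CO2 lay below the highest at 5% CO2. Over the 24 libraries of both knockdown lines, fitted together, STARD4 fell by 0.39 on the log2 scale with 10% CO2 in basal cells (SE 0.094, adjusted p = 0.0147) and rose by 0.46 with 10% CO2 in LPS-stimulated cells (SE 0.087, adjusted p = 0.000801). The difference between these responses was 0.86 (SE 0.128, adjusted p = 0.00305). It lay between 0.79 and 0.93 when any single library was left out and stayed called each time.

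**Figure D1:**
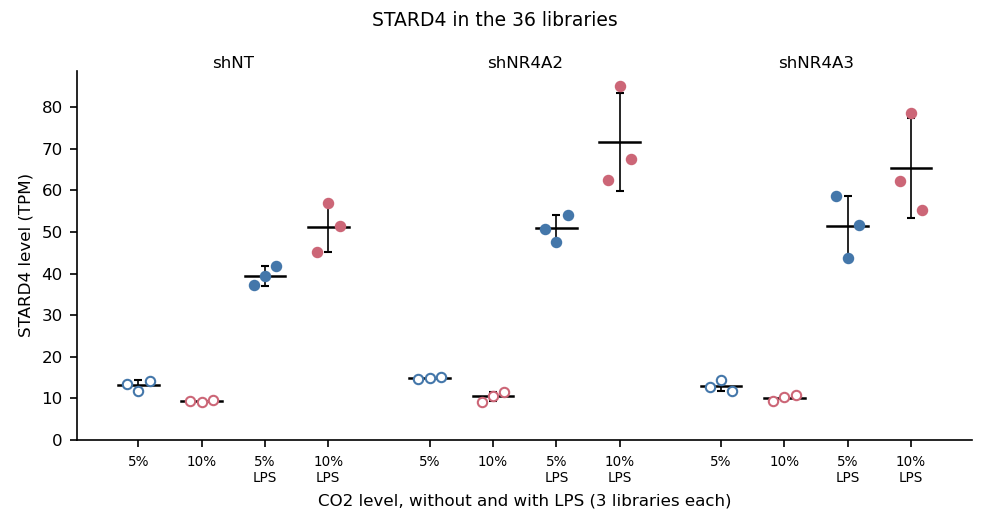
STARD4 level (TPM, vertical axis) in each of the 36 libraries by line, CO2 level and LPS. Points are libraries (open without LPS, filled with LPS; blue 5% CO2, red 10% CO2), black lines the mean and SD of 3 libraries. In each line the red points lie below the blue ones without LPS (mean 9.39 against 13.2 TPM in shNT) and their mean lies above with LPS (51.2 against 39.5 TPM in shNT).

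Taken line by line the difference between the responses of STARD4 was 0.99 in shNR4A2 (SE 0.165) and 0.72 in shNR4A3 (SE 0.192). Neither passed the test over all genes with 12 libraries (adjusted p = 0.194 and 0.827), and 0 of the 17720 genes were called in either line (0.0% and 0.0%). Unadjusted p-values under 0.05 were given to 1 member in shNR4A2 (904 of all genes) and 2 members in shNR4A3 (995 of all genes), STARD4 among them in both, and DESeq2 called STARD4 in shNR4A2 and no member in shNR4A3. In shNR4A2 the call was also made with the replicate number as a block (adjusted p = 0.0304) and without 5% CO2 + LPS replicate 3. Single-line changes in STARD4 were likewise not called: -0.46 basal and 0.54 with LPS in shNR4A2, and -0.33 and 0.39 in shNR4A3. A short antisense transcript, STARD4-AS1, shares 2.18% of the exonic bases of STARD4 and moved the other way with LPS, from 3.57 to 1.97 CPM (counts scaled for depth alone) in shNT at 5% CO2.

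The rest of the sterol genes did not share this reversal. Over both knockdown lines STARD4 was the only called member of 35 for the difference in CO2 response between LPS and basal cells, where 7 of all 17720 genes were called (0.0395%). Among the other 34 members the difference ran from -0.44 (ABCG1, SE 0.596) to 0.15 (INSIG1, SE 0.138), with 27 of 34 below 0 and a median of -0.0934, beside a median of -0.00947 over all genes tested. Of these 34, 3 had an unadjusted p under 0.05 and all 3 lay below 0: NSDHL at -0.31, SQLE at -0.29 and IDI1 at -0.23, whose smallest adjusted p was 0.278. In shNT, where this contrast chose STARD4, 0.0226% of all genes were called, and nothing is read from that share. The other 34 members ran from -0.44 (MVK) to 0.18 (INSIG1) in shNT, and edgeR gave 0 of them an unadjusted p under 0.05 and called 0, as did DESeq2.

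**Figure D2:**
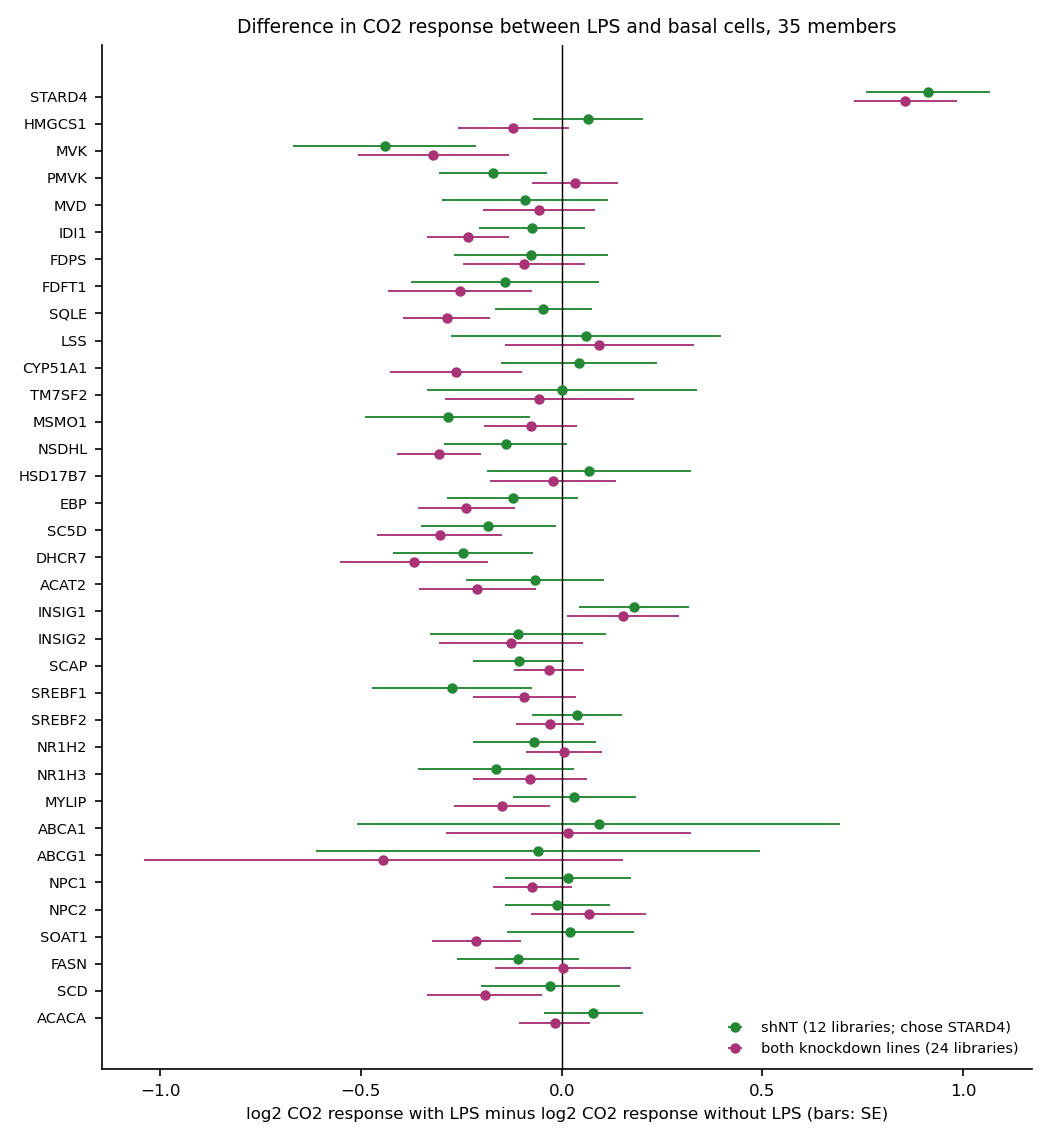
Difference in log2 CO2 response between LPS-stimulated and basal cells for the 35 tested members (horizontal axis; bars are standard errors), in shNT (green, 12 libraries) and over both knockdown lines (purple, 24 libraries). STARD4 stands at 0.91 and 0.86, and the other 34 members lie between -0.44 and 0.18.

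With LPS, 10% CO2 lowered a run of sterol synthesis enzymes in the knockdown lines while STARD4 rose. Of the 35 tested members, 13 fell and 3 rose, beside 9.37% and 7.61% of all genes tested called lower and higher. Of the 18 enzymes of the synthesis route 9 fell, 9 were not called, and 17 had a log2 fold change below 0. The early enzymes that fell were HMGCS1 (HMG-CoA synthase, log2 fold change -0.48, SE 0.098), MVK (mevalonate kinase, -0.55, SE 0.137) and IDI1 (isopentenyl diphosphate isomerase, -0.58, SE 0.072). The squalene steps followed, with FDFT1 (squalene synthase) at -0.43, SE 0.127, and SQLE (squalene epoxidase) at -0.47, SE 0.077. Among the enzymes that shape the sterol ring, CYP51A1 (lanosterol demethylase) fell by 0.44, NSDHL (removal of the C4 methyl groups) by 0.26, SC5D (sterol desaturase) by 0.47 and DHCR7, the last step to cholesterol, by 0.62 on the log2 scale. Their adjusted p-values ran from 2.2e-05 for IDI1 to 0.0222 for FDFT1. The enzymes that were not called ran from -0.27 (ACAT2) to 0.16 (PMVK). CYP51A1 shares 78.8% of its exonic bases with LRRD1 on the same strand. Its 104 to 220 counts per library may therefore rest on a part of the gene.

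In SREBP control INSIG1 fell by 0.40 and SREBF1 by 0.41 on the log2 scale (adjusted p = 0.00636 and 0.00308), while SCAP rose by 0.25 (adjusted p = 0.0064). INSIG2 (0.011) and SREBF2 (-0.12) were not called. In the LXR and efflux arm ABCA1 fell by 0.83 (SE 0.217, adjusted p = 0.0135) and NR1H2 by 0.27 (SE 0.066, adjusted p = 0.007). ABCG1, the other efflux pump, had the largest estimate among the members (-1.06) and the largest error (SE 0.452) at 2 to 111 counts per library, and was not called. Of the fatty acid enzymes ACACA, which makes malonyl-CoA, rose by 0.22 (adjusted p = 0.0146), while FASN (0.00094) and SCD (-0.29) were not called, nor were the lysosomal exporters NPC1 (-0.13) and NPC2 (-0.075) or the esterifying enzyme SOAT1 (-0.089). Over the 35 members the median log2 fold change was -0.21, beside 0.0024 over all genes tested. Leaving out any single library gave 13 to 19 called members. FDFT1 stayed called in 19 of the 24 refits, NSDHL in 21 and CYP51A1 in 23, and the other 13 in all 24.

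Without LPS the same contrast in the knockdown lines called 7 members lower and 2 higher, beside 2.71% and 3.16% of all genes tested. The lower ones were STARD4, HMGCS1 (-0.36, adjusted p = 0.0313), IDI1 (-0.34, adjusted p = 0.00627), INSIG1 (-0.55, adjusted p = 0.00249), SREBF1 (-0.31, adjusted p = 0.0388), NR1H2 (-0.27, adjusted p = 0.0171) and ABCA1 (-0.85, adjusted p = 0.0282). SCAP (0.28, adjusted p = 0.0081) and ACACA (0.24, adjusted p = 0.0228) rose. Among the members called in basal cells STARD4 alone changed direction, since the other 8 were called in the same direction with LPS. NSDHL, not called in basal cells, lay above 0 there in all 3 lines and was called lower with LPS in the knockdown lines. The count of members called in basal cells fell to 5 without shNR4A3 5% CO2 replicate 2 and to 4 without shNR4A3 10% CO2 replicate 2. IDI1, INSIG1, SCAP and STARD4 stayed called in all 24 refits that left a library out. NR1H2 and ACACA stayed called in 21 of them, SREBF1 in 18, and HMGCS1 and ABCA1 in 17.

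**Figure D3:**
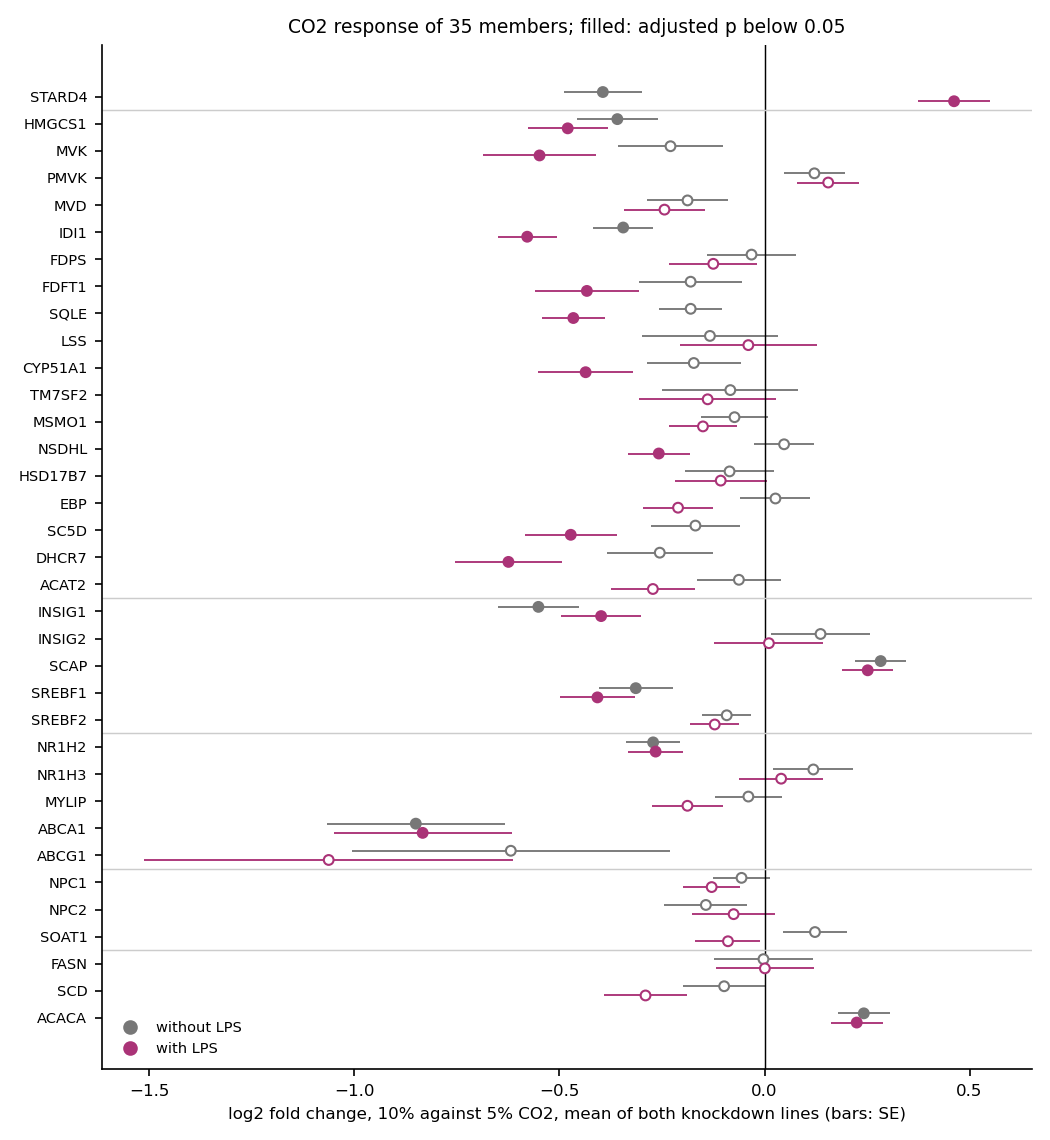
Log2 fold change of 10% against 5% CO2 (horizontal axis, mean of both knockdown lines, bars are standard errors) for the 35 tested members, grouped by role with grey lines. Grey points are basal cells and purple points LPS-stimulated cells, and filled points were called. STARD4 moves from -0.39 to 0.46, while 13 members are filled below 0 with LPS, INSIG1 (-0.40) and ABCA1 (-0.83) among them.

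In the single lines fewer members were called and the directions were the same for most. In basal shNT cells 1 member was called, INSIG1, which fell by 0.64 (SE 0.111, adjusted p = 0.0325), beside 0.288% of all genes tested called lower. That count was 0 without replicate 1 or 3 at 5% CO2 or replicate 2 at 10% CO2, 5 without replicate 1 at 10% CO2 and 2 without replicate 3 at 10% CO2. The shares of all genes in these refits are not given. In LPS-stimulated shNT cells 6 members fell, beside 3.72% of all genes tested: HMGCS1 (-0.30), MVK (-0.51), IDI1 (-0.48), DHCR7 (-0.68), INSIG1 (-0.46) and SREBF1 (-0.62), with adjusted p-values from 0.00497 to 0.0417. Genes called higher made up 4.47% of all, where STARD4 is given as a description only. IDI1, DHCR7, INSIG1 and SREBF1 stayed called with any single library left out, HMGCS1 in 1 of 6 such refits and MVK in 0 of 6. MVK was also not called with DESeq2 (adjusted p = 0.0504), and neither MVK nor HMGCS1 was called in the fit to all 36 libraries (adjusted p = 0.0906 and 0.139). Counting STARD4, the members numbered 7, and 4 without replicate 1 or 2 at 5% CO2 or replicate 2 at 10% CO2.

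In LPS-stimulated shNR4A3 cells HMGCS1 (-0.40), IDI1 (-0.51), SQLE (-0.47) and SREBF1 (-0.41) fell (adjusted p from 0.0197 to 0.0466), beside 1.2% of all genes tested called lower and 0.931% called higher. IDI1 stayed called in 4 of 6 refits that left a library out and each of the others in 1 of 6, with 1 call left without replicate 1 or 2 at 5% CO2 and 0 left without replicate 1 or 2 at 10% CO2. In basal shNR4A3 cells edgeR called 0 members and 1.13% of all genes. There 12 members and 2956 of all genes had an unadjusted p under 0.05, DESeq2 called 5 members and 1.37% of the genes with a count, and leaving out 5% CO2 replicate 1 gave 5 calls and replicate 2 or 3 gave 1. In shNR4A2 edgeR called 0 members in basal cells (0.0113% of all genes) and 0 with LPS (0.198%). Unadjusted p-values under 0.05 were found for 6 and 21 members, beside 1430 and 2897 of all 17720 genes. DESeq2 called 2 and 6 members, beside 0.111% and 1.49% of the genes with a count. In basal shNR4A2 cells same-numbered libraries deviated together, and with the replicate number as a block 3 members were called, HMGCS1 (-0.46), STARD4 (-0.46) and INSIG1 (-0.58), beside 2.04% of all genes. Without 5% CO2 + LPS replicate 3 the shNR4A2 count with LPS was 11, and without 5% CO2 replicate 3 the basal count was 1. The shares of all genes called in the refits that left a library out are not given, so a gain of members there cannot be read as particular to them. Of the 35 members 25 lay below 0 in all 3 lines in basal cells and 23 with LPS. Those above 0 in all 3 lines were ACACA, INSIG2, NR1H3, NSDHL, PMVK and SCAP in basal cells. With LPS they were ACACA, PMVK, SCAP and STARD4. The share of all genes on the same side in all 3 lines was not counted.

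HMGCS1, IDI1, INSIG1 and SREBF1, each called lower at 10% CO2 in 4 comparisons, show the pattern library by library. They were picked for these calls. For HMGCS1, IDI1 and SREBF1 the comparisons in LPS-stimulated shNR4A3 cells and in the LPS-stimulated knockdown lines share libraries, so these calls are not separate. In the CO2 comparisons of single lines 13.9% to 30% of all genes tested did not overlap, by scaled counts. HMGCS1 in shNT was 98.2, 105 and 126 TPM at 5% CO2 and 84.2, 70.8 and 84.5 TPM at 10% CO2. With LPS it was 130.2, 161 and 129 TPM at 5% CO2 and 104, 89.8 and 116 TPM at 10% CO2. No library at 10% CO2 reached the lowest at 5% CO2 in either state. In shNR4A2 HMGCS1 was 54.2, 56.8 and 56.1 TPM at 5% CO2 and 37.5, 37.7 and 42.4 TPM at 10% CO2, and with LPS 92.2, 111 and 60.9 TPM and 62.4, 57.6 and 51.6 TPM. In shNR4A3 it was 108, 152 and 125 TPM and 101, 97.5 and 116 TPM, and with LPS 190.3, 211 and 160.1 TPM and 138, 135 and 135 TPM. The groups overlapped in LPS-stimulated shNR4A2 cells, where replicate 3 at 5% CO2 was low, and in basal shNR4A3 cells.

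IDI1 in shNT was 62.1, 67.5 and 74.9 TPM at 5% CO2 and 50.4, 47.5 and 47.1 TPM at 10% CO2, and with LPS 66.7, 82.7 and 70.9 TPM and 44.9, 44.9 and 54.2 TPM. In shNR4A2 it was 46.5, 50.04 and 48.0 TPM and 36.3, 33.7 and 39.0 TPM, and with LPS 57.5, 70.6 and 49.5 TPM and 36.9, 38.3 and 33.4 TPM. In shNR4A3 it was 64.6, 83.9 and 71.8 TPM and 55.0, 51.9 and 64.6 TPM, and with LPS 77.3, 86.9 and 73.7 TPM and 52.7, 56.2 and 52.5 TPM. IDI1 was lower at 10% CO2 in all 3 lines and both states without overlap, but in basal shNR4A3 cells the closest libraries were both at 64.6 TPM.

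INSIG1, the anchor of the sterol feedback, was 70.4, 79.3 and 74.4 TPM in shNT at 5% CO2 and 47.2, 39.9 and 48.7 TPM at 10% CO2, and with LPS 91.2, 102 and 81.0 TPM and 62.6, 53.2 and 66.2 TPM. In shNR4A2 it was 93.4, 117 and 98.3 TPM and 62.5, 61.0 and 74.6 TPM, and with LPS 154, 178 and 127 TPM and 108, 109 and 97.7 TPM. In shNR4A3 it was 82.9, 132 and 102 TPM and 68.4, 68.9 and 80.0 TPM, and with LPS 179.7, 171 and 140.5 TPM and 145, 121 and 117 TPM. INSIG1 was lower in every library at 10% CO2 than in any at 5% CO2 in 5 of the 6 pairs of groups, the exception being LPS-stimulated shNR4A3 cells.

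SREBF1 was 47.0, 61.8 and 54.0 TPM in shNT at 5% CO2 and 34.4, 35.96 and 50.7 TPM at 10% CO2, and with LPS 49.3, 54.4 and 43.2 TPM and 29.7, 23.6 and 34.3 TPM. In shNR4A2 it was 45.7, 64.5 and 45.5 TPM and 37.6, 48.4 and 40.4 TPM, and with LPS 37.5, 51.9 and 34.6 TPM and 29.8, 29.7 and 30.3 TPM. In shNR4A3 it was 49.2, 66.9 and 51.1 TPM and 39.2, 39.9 and 47.9 TPM, and with LPS 45.5, 56.8 and 48.4 TPM and 34.2, 36.2 and 38.7 TPM. With LPS the SREBF1 groups did not overlap in any line, and without LPS they overlapped in shNT and shNR4A2.

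**Figure D4:**
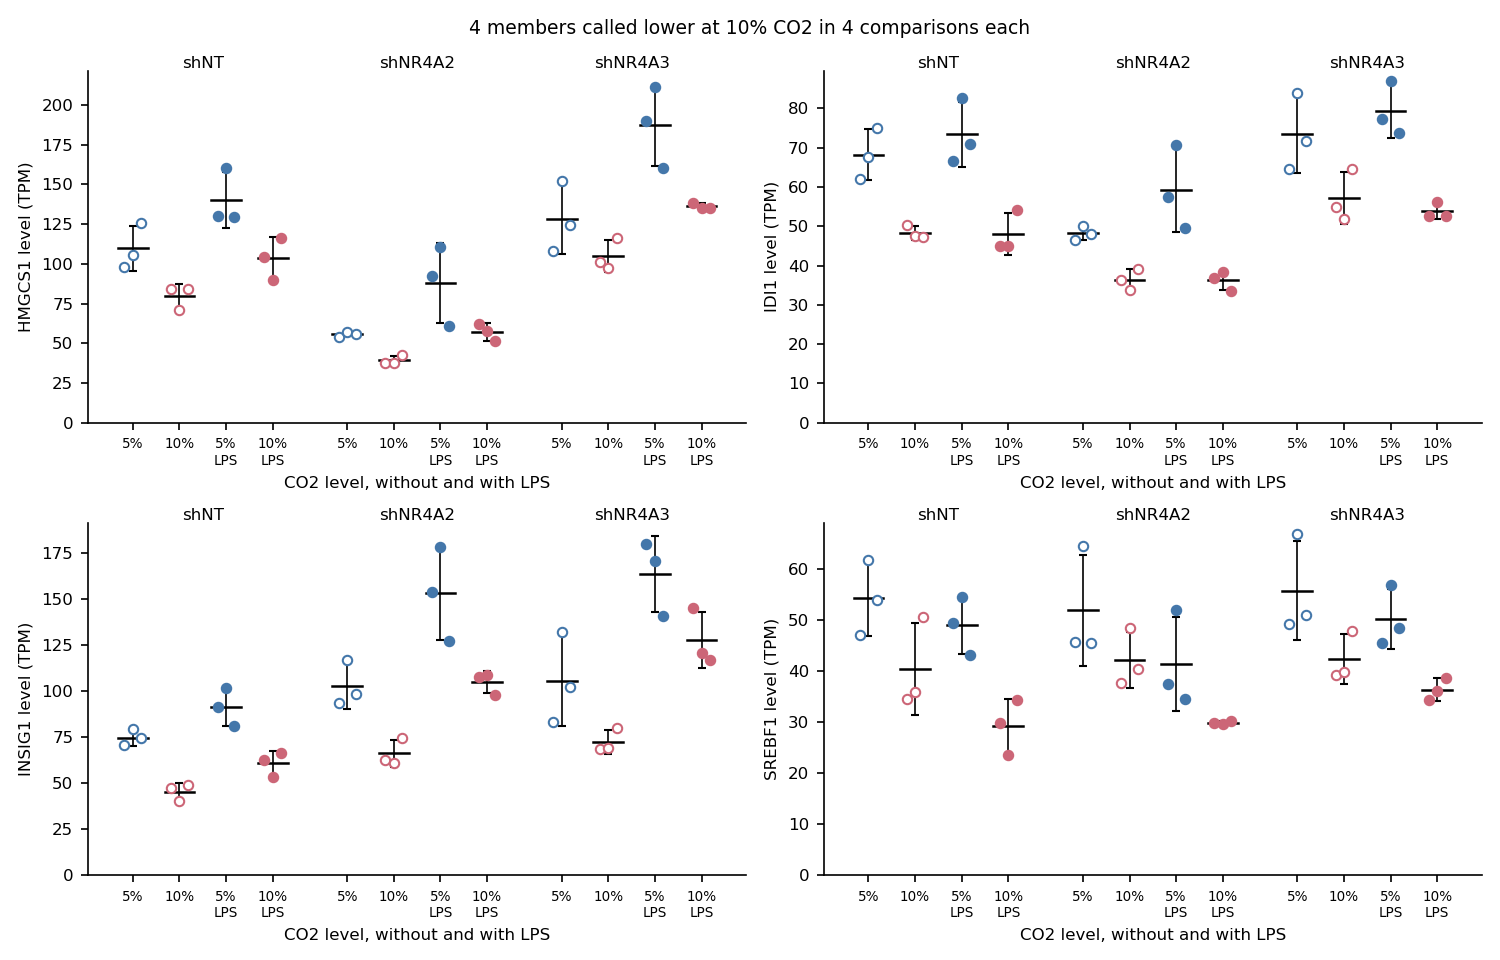
Levels (TPM, vertical axes) of HMGCS1, IDI1, INSIG1 and SREBF1 in each of the 36 libraries, by line, CO2 level and LPS, drawn as in the plot of STARD4. Red points (10% CO2) lie below blue points (5% CO2) in most pairs of groups, with and without LPS, for example 45.3 against 74.7 TPM for the mean of INSIG1 in basal shNT cells.

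With LPS members were called in both directions. Calls in either direction made up a share of the members near that of all genes. At 5% CO2 the share called higher lay above that of all genes in each line, and the share called lower lay below. STARD4 rose most. On the log2 scale it rose by 2.04 and 2.21 at 5% CO2 and by 3.05 and 2.95 at 10% CO2 in shNR4A2 and shNR4A3 (adjusted p = 5.05e-08, 2.7e-07, 2.96e-11 and 6.67e-10), and its shNT values were 1.81 and 2.72. HMGCS1 rose in all 6 comparisons by 0.58 to 0.91, INSIG1 by 0.51 to 1.09 and NR1H2, the widely expressed LXR receptor, by 0.39 to 0.51. SREBF2 rose in 5 of 6 (0.23 to 0.32), SQLE in 4 of 6 and IDI1 in 3 of 6. MYLIP fell in all 6 comparisons by 0.83 to 1.06, INSIG2 fell in 5 of 6 and NR1H3, the myeloid LXR receptor, in 4 of 6. Some synthesis enzymes fell too, MVK in 3 of 6 comparisons (lowest log2 fold change -0.70), NSDHL and SC5D in 2 each and EBP, a sterol isomerase, in 1. INSIG1 and INSIG2, which share the role of holding SCAP back, thus changed in opposite directions with LPS.

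MYLIP in shNT was 36.4, 32.6 and 34.2 TPM at 5% CO2 and 15.6, 18.0 and 14.3 TPM with LPS, and at 10% CO2 35.5, 30.5 and 31.7 TPM and 14.3, 15.1 and 15.3 TPM. In shNR4A2 it was 36.5, 31.0 and 33.0 TPM and 15.5, 16.7 and 14.9 TPM at 5% CO2, and 27.4, 36.6 and 25.6 TPM and 11.5, 13.6 and 10.4 TPM at 10% CO2. In shNR4A3 it was 28.5, 34.5 and 28.2 TPM and 14.6, 13.9 and 15.4 TPM at 5% CO2, and 28.4, 32.0 and 31.8 TPM and 13.7, 13.7 and 14.8 TPM at 10% CO2. All 18 libraries with LPS lay below all 18 without, and the CO2 level made no called difference to MYLIP in any line. INSIG2 in shNT was 9.38, 7.54 and 10.8 TPM at 5% CO2 and 5.21, 4.88 and 6.03 TPM with LPS, and at 10% CO2 10.4, 10.9 and 8.47 TPM and 5.06, 4.75 and 5.85 TPM. In shNR4A2 it was 8.18, 5.41 and 7.62 TPM and 3.43, 4.83 and 3.55 TPM at 5% CO2, and 8.39, 7.34 and 7.92 TPM and 3.39, 3.53 and 3.53 TPM at 10% CO2. In shNR4A3 it was 9.08, 6.30 and 7.56 TPM and 4.07, 2.99 and 3.35 TPM at 5% CO2, and 7.88, 8.07 and 7.77 TPM and 3.59, 4.11 and 3.47 TPM at 10% CO2. Within each line and CO2 level no INSIG2 library with LPS reached the lowest without. MYLIP and INSIG2 were picked among members whose libraries did not overlap, so the lack of overlap is a description. In the LPS comparisons 34.6% to 52.2% of all genes tested did not overlap, by scaled counts.

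Counted over the 35 members, LPS called 8 higher and 3 lower in shNT at 5% CO2, beside 11.2% and 11.6% of all genes tested, and 6 and 4 at 10% CO2, beside 15.1% and 16.1%. In shNR4A2 the counts were 6 and 1 at 5% CO2, beside 8.91% and 9.26%, and 8 and 6 at 10% CO2, beside 16.5% and 18.5%. In shNR4A3 they were 7 and 2 at 5% CO2, beside 11.9% and 13.4%, and 7 and 8 at 10% CO2, beside 20.6% and 21.5%. As a share of the 35 members, calls in either direction ran from 20% to 42.9% over the 6 comparisons, beside 18.2% to 42.1% of all genes tested. At 5% CO2 the members called higher made up 22.9% in shNT, 17.1% in shNR4A2 and 20% in shNR4A3. Those called lower made up 8.57%, 2.86% and 5.71%. With the replicate number as a block, in the 3 of these comparisons where same-numbered libraries deviated together, the members called were 14 in shNR4A2 at 5% CO2, 14 in shNR4A3 at 5% CO2 and 24 in shNR4A3 at 10% CO2, beside 27.7%, 35.6% and 52.2% of all genes in the same fits. In shNT at 5% CO2 the count of 11 fell to 6 without 5% CO2 replicate 1 or 5% CO2 + LPS replicate 2, and in shNR4A2 at 10% CO2 the count of 14 fell to 9 without 10% CO2 replicate 3 or 10% CO2 + LPS replicate 2.

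The scaling matters for the smaller LPS changes. Scaling by library size alone, in place of TMM, moved the median log2 change of all genes from near 0 to between -0.25 and -0.18. The members called higher and lower were then 4 and 5 in shNT at 5% CO2, 3 and 15 at 10% CO2, 4 and 3 and then 3 and 14 in shNR4A2, and 3 and 7 and then 4 and 14 in shNR4A3. In the same order 30.3%, 39.6%, 26.4%, 43.6%, 33.4% and 49.4% of all genes were called in either direction. Shares of all genes by direction are not given for this scaling, so the lower counts are not set against them. All 6 calls of STARD4, HMGCS1, INSIG1 and MYLIP and all 5 of INSIG2 were kept under that scaling, as were the falls of NR1H3, MVK, NSDHL, SC5D and EBP, while NR1H2 kept 2 of 6, SQLE 1 of 4, and SREBF2 and IDI1 none, with no called member turned to the other direction. ACAT2, the cytosolic thiolase that starts the route, was called higher in 2 of 6 comparisons but is uncertain, since 43.0% of its exonic bases lie opposite a neighbouring gene (ENSG00000112096) whose level rose from 80.7 to 6678 CPM with LPS in shNT at 5% CO2, and the strand setting of the counting is not given.

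**Figure D5:**
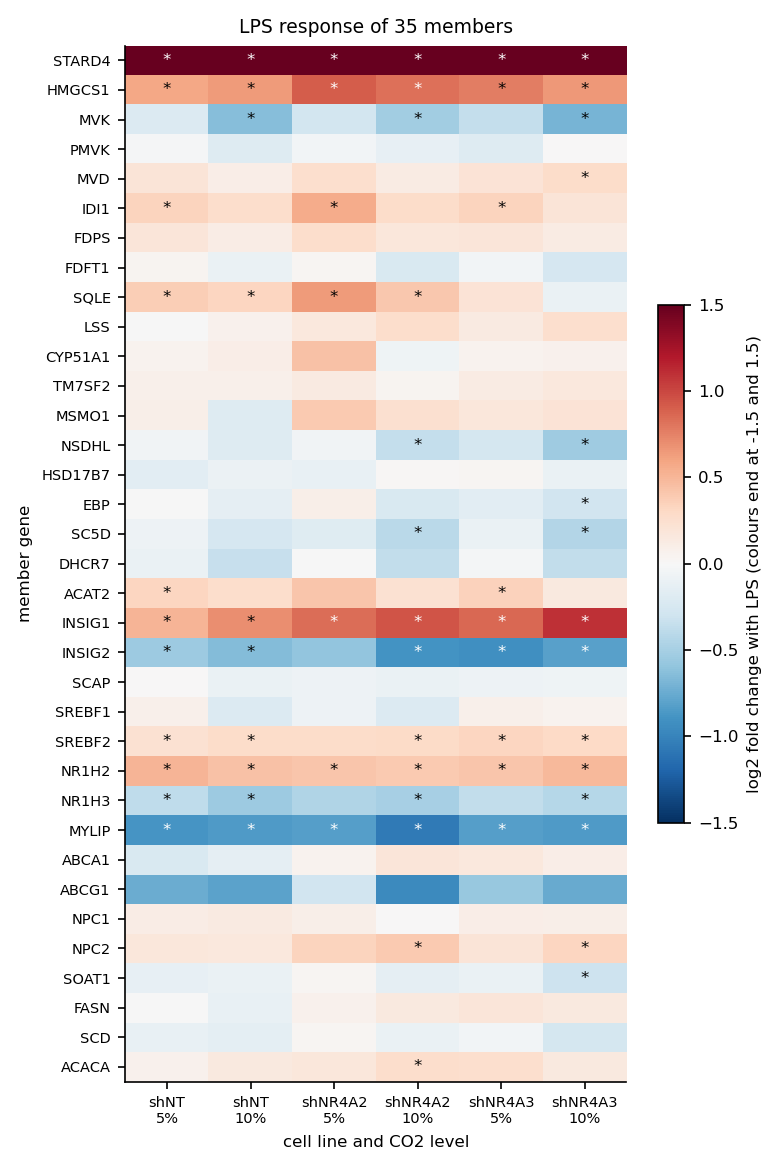
Log2 fold change with LPS for the 35 tested members (rows) in each line at 5% and 10% CO2 (columns), in colour from blue (lower) to red (higher), with an asterisk where the member was called. STARD4 is beyond the end of the scale in every column (1.81 to 3.05), HMGCS1, INSIG1 and NR1H2 are red and MYLIP is blue with an asterisk in all 6.

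The knockdown lines also differed from shNT at 5% CO2 in a few members. In basal shNR4A2 cells HMGCS1 (-0.97, SE 0.103), SC5D (-0.82, SE 0.136) and IDI1 (-0.50, SE 0.104) were lower, beside 2.47% of all genes tested called lower, and INSIG1 (0.46) and the lysosomal exporter NPC1 (0.47) were higher, beside 3.22%. With LPS SC5D was lower by 0.91 on the log2 scale, as 1 member beside 2.37%, and MSMO1 (a methylsterol oxidase, 0.91), INSIG1 (0.80), NPC1 (0.46) and SQLE (0.35) were higher, beside 3.84%. STARD4, whose shNT values chose the list, stood 0.42 higher there, given as a description. In basal shNR4A3 cells MSMO1 (0.60) and INSIG1 (0.54) were the members called, both higher, beside 3.36% of all genes called higher and 2.83% called lower. With LPS INSIG1 (0.90), MSMO1 (0.68) and HMGCS1 (0.47) were higher in shNR4A3, beside 3.24%, and SQLE (-0.35) was lower, beside 2.17%. INSIG1 was thus higher than in shNT in both knockdown lines and both states, while HMGCS1 was called lower in shNR4A2 in basal cells alone (with LPS -0.62, adjusted p = 0.0736) and higher in shNR4A3 with LPS alone (basal 0.27, adjusted p = 0.159). With the replicate number as a block, where same-numbered libraries deviated together, 12 and 18 members differed in shNR4A2 (basal and LPS) and 10 in shNR4A3 with LPS, beside 21.5%, 24.7% and 18.7% of all genes in the same fits. Single libraries weighed on these counts. In basal shNR4A2 the 5 fell to 2 or 3 without any shNT replicate or without shNR4A2 replicate 1 or 3, and with LPS the 6, counting STARD4, fell to 3 without any shNT replicate. In basal shNR4A3 the 2 fell to 0 or 1 without any of the 6 libraries, and with LPS the 4 fell to 2 without shNT replicate 1 or 3 or shNR4A3 replicate 1.

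Whether a knockdown changed the CO2 response itself was tested as the interaction of line and CO2. EdgeR called 0 of 35 members and 0 of all genes (0.0%) in shNR4A2 basal, shNR4A2 with LPS, shNR4A3 basal and shNR4A3 with LPS, and DESeq2 called 0 members in each. The members with an unadjusted p under 0.05 numbered 0, 1, 1 and 0. For STARD4, whose shNT values enter here, the differences were -0.06, 0.05, 0.06 and -0.11 (SE 0.155, 0.1697, 0.147 and 0.221). For the other 34 members the median difference lay between -0.0193 and 0.0231 on the log2 scale.

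Of 26 further genes of the pathway, listed with the members, 25 were tested. With LPS in the knockdown lines 10% CO2 lowered 4 of them and raised 1, beside 9.37% and 7.61% of all genes. GRAMD1B, a carrier of plasma membrane sterol to the endoplasmic reticulum, fell by 0.51 (SE 0.102, adjusted p = 0.00127), and LBR, a sterol reductase of the nuclear envelope, fell by 0.30 (SE 0.063, adjusted p = 0.00191). GRAMD1A, a relative of GRAMD1B, rose by 0.72 (SE 0.164, adjusted p = 0.00541). In basal cells the single called gene, beside 3.16% of all genes called higher, was MBTPS2, the protease that makes the last cut in SREBP activation, which rose by 0.31 (SE 0.078, adjusted p = 0.0185), while ERLIN1 (0.28) and TMEM97 (0.19), next by p, were not called. In shNT at 5% CO2 LPS raised 1 of the 25 and lowered 4, beside 11.2% and 11.6% of all genes, with GRAMD1A at 2.22, ERLIN1 at -0.99 and SMPDL3A, which was not called, at -0.52.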

How the data were processed

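RNA-seq was made from 36 THP-1 libraries. Per the submitters' processing notes and the study's methods, reads were trimmed with Trimmomatic (0.36), aligned to GRCh38 with STAR (2.5.2b) and counted per gene with featureCounts (Subread 1.5.2). The deposited values are raw counts per gene, 1 file per library. The annotation release and strand setting are not given in the sources used here, so reads of antisense partners cannot be told apart. Gene names were matched for 56410 of 57500 identifiers (98.1%).

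Counts were filtered with filterByExpr (minimum count 10, minimum total 15) and tested with edgeR (4.0.16, TMM scaling, robust quasi-likelihood F test, R 4.3.3). P-values were adjusted by Benjamini-Hochberg over all 17720 genes in each of 26 comparisons, and SE is the log2 fold change divided by the root of F. Each comparison was fitted on its own groups, and contrasts over the knockdown lines on their 24 libraries with a mean for each condition. TPM used the gene lengths in the files and carries no TMM scaling. An exact permutation test of 3 against 3 libraries cannot go below p = 0.1, so none was used. Some of the fits were run on simulated counts, with planted changes larger than most CO2 changes of the members and without paired libraries. That check therefore does not cover smaller changes or pairing. Alternatives were RLE and library-size scaling, DESeq2 (1.42.0), no filter, a replicate block, a fit to all 36 libraries, a threshold of 0.01, levels as log2 CPM in place of TPM and leaving out each library.

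Same-numbered libraries were taken as paired where every correlation of their deviations from the group means was over 0.1. This held in 7 comparisons: CO2 in basal shNR4A2 (0.175 to 0.307), LPS in shNR4A2 at 5% CO2 (0.1703 to 0.249) and in shNR4A3 at 5% CO2 (0.115 to 0.161) and 10% CO2 (0.145 to 0.287), shNR4A2 against shNT without LPS (0.171 to 0.210) and with LPS (0.200 to 0.289), and shNR4A3 against shNT with LPS (0.123 to 0.242). The pairing comes from the data, since the labels give the numbers no further meaning.

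The members and the lists of other genes were chosen with earlier results of these data known. Every member called in a CO2 comparison is named. Per-library values are given for STARD4, for the members called in the most CO2 comparisons, and for those with the largest absolute LPS change among called members without overlapping libraries. Of the further pathway genes the 3 with the smallest p in each CO2 comparison over the knockdown lines are named, and the 3 with the largest absolute LPS change in shNT at 5% CO2. Some genes are not reported here.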

Additional observations from a re-analysis of the deposited data

Results flagged for a closer look

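The CO2 response of STARD4 differed between LPS-stimulated and basal cells in the knockdown lines, and was flagged because an interaction term tested that difference and passed. The difference on the log2 scale was 0.86 (SE 0.128, edgeR adjusted p = 0.00305), from -0.39 without LPS and 0.46 with LPS. STARD4 was lower at 10% CO2 in all 6 basal libraries of the knockdown lines than in any library of the same line at 5% CO2, and with LPS it was higher without overlap in shNR4A2 and with overlap in shNR4A3. Groups without overlap were found for 13.9% and 22% of all genes tested in basal shNR4A2 and shNR4A3, and for 21.5% in shNR4A2 with LPS. No group held more than 3 libraries, so no single library was tested for standing apart.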

How the results depend on the processing

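No fold change of a called member changed sign under any alternative, but with library size only the balance of LPS calls turned from more higher to more lower in shNT at 5% CO2 (8 and 3 to 4 and 5) and 10% CO2 (6 and 4 to 3 and 15), in shNR4A2 at 10% CO2 (8 and 6 to 3 and 14) and in shNR4A3 at 5% CO2 (7 and 2 to 3 and 7). There 30.3%, 39.6%, 43.6% and 33.4% of all genes were called in either direction, and the median of all genes lay between -0.25 and -0.18. STARD4's difference in CO2 response over the knockdown lines was called under every setting (0.84 to 0.87), and the count of members lowered or raised by CO2 with LPS in those lines stayed within 1.5 times of 16. The counts that moved are given as members called, followed by the shares of all genes called in the same fits, in the same order. With DESeq2 CO2 gave 4 in basal shNT (1 by edgeR), 2 and 6 in shNR4A2 basal and with LPS (0 and 0), 5 and 7 in shNR4A3 (0 and 4), and 1 for CO2 by LPS in shNR4A2 (0). Of the genes with a count, DESeq2 called 0.965%, 0.111%, 1.49%, 1.37%, 2.14% and 0.0293%. With no filter the CO2 counts were 2 and 11 in shNT, 2 and 10 in shNR4A2 and 6 and 14 in shNR4A3, those for CO2 by LPS were 1 in shNR4A2 and 1 in shNR4A3, and those against shNT with LPS were 10 in shNR4A2 and 7 in shNR4A3. Among all genes with a count the shares were 1.13%, 5.49%, 0.224%, 2.75%, 2.05%, 3.38%, 0.160%, 0.196%, 4.55% and 4.31%. With the replicate block CO2 gave 2 in basal shNT, 3 and 6 in shNR4A2 and 6 in basal shNR4A3. These fits called 0.813%, 2.04%, 3.49% and 6.06% of all genes, against 0.615%, 0.0113%, 0.198% and 1.13% without the block. The block also gave 14 for LPS in shNR4A2 at 5% CO2, 14 and 24 for LPS in shNR4A3 at 5% and 10% CO2, and 1 for CO2 by LPS in shNR4A2. The shares of all genes there were 27.7%, 35.6%, 52.2% and 0.0226%. Against shNT the block gave 12 and 18 in shNR4A2 and 5 and 10 in shNR4A3, beside 21.5%, 24.7%, 13.0% and 18.7% of all genes. It changed no other count by over 1.5 times. One fit to all 36 libraries gave 2 for CO2 in basal shNT, 1 and 8 in shNR4A2, 1 and 2 in shNR4A3, 14 for LPS in shNR4A2 at 5% CO2, and 0 and 1 for CO2 by LPS in shNT and shNR4A2. Of all genes it called 1.71%, 0.327%, 5.69%, 0.604%, 4.85%, 29.4%, 0.0% and 0.00564%. At an adjusted p under 0.01 the CO2 counts were 0 and 4 in shNT, 0 in shNR4A3 with LPS and 3 in the basal knockdown lines. That threshold gave 6 for LPS in shNT at 5% CO2, 6 in shNR4A2 at 10% CO2, 0 for CO2 by LPS in shNT, and 2, 3, 0 and 2 against shNT (shNR4A2 basal, shNR4A2 LPS, shNR4A3 basal, shNR4A3 LPS). The shares of all genes at that threshold were not counted. With library size only the counts were 1 for CO2 with LPS in shNR4A3, 18 for LPS in shNT at 10% CO2, 0 for CO2 by LPS in shNT, 3 for shNR4A2 against shNT with LPS and 1 for shNR4A3 against shNT without LPS. All genes were called at shares of 0.942%, 39.6%, 0.0113%, 5.69% and 5.77%. The causes of these shifts were not tested.

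Leaving out a single library gave, for CO2, 0 to 5 in basal shNT, 4 to 7 in shNT with LPS, 0 to 1 and 0 to 11 in shNR4A2, 0 to 5 and 0 to 4 in shNR4A3 and 4 to 9 in the basal knockdown lines. It gave 6 to 10 for LPS in shNT at 5% CO2, 9 to 14 for LPS in shNR4A2 at 10% CO2, and 0 to 1 for CO2 by LPS in shNT and in shNR4A2. Against shNT it gave 2 to 4 and 3 to 8 in shNR4A2 and 0 to 1 and 2 to 5 in shNR4A3. Here and above, the counts with a library left out are not set against the share of all genes called in the same refit. Over all 35 members and 26 comparisons, the other settings kept a call 740 times, lost it 114 times and gained one 234 times. With a library left out a call was kept 1013 times, lost 193 times and gained 77 times. CH25H (at most 4 counts) was too low to test. ABCG1 (2 to 111 counts) had the largest SE among the members for CO2 with LPS in the knockdown lines and was called there with the replicate block alone (-1.05, adjusted p = 0.00707). For the 9 comparisons of a single pair of groups that were not taken as paired, the data gave a hint. All 6 libraries correlated best with their own number in LPS in shNT at 10% CO2 alone, and in the other 8 comparisons 0 to 5 of 6 did so. The replicate block there, for LPS in shNT at 10% CO2, called 15 members and 40.4% of all genes, against 10 and 31.2% without it.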
